A study of Arabidopsis thaliana with 10 samples.

Results

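The gibberellin 2-oxidases are the enzymes that take active gibberellins and their precursors out of use, and 7 loci of the family were read out of 33518 genes in the deposited tables. The members were chosen by locus identifier and not by their values, although earlier results of these data were known. They are GA2OX1 (AT1G78440), GA2OX2 (AT1G30040), GA2OX3 (AT2G34555), GA2OX4 (AT1G47990), GA2OX6 (AT1G02400), GA2OX7 (AT1G50960) and GA2OX8 (AT4G21200), and all 7 had a row in each of the 3 tables.

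RNA of dark-grown Arabidopsis seedlings, with the tissue given as hypocotyl, was sequenced in 5 groups of 2 libraries each, the second marked as a repeat. All groups, the controls included, were of the Col-0 ecotype and grew for 4.5 days in darkness on 1 µM PAC (paclobutrazol, which blocks gibberellin synthesis). Those on PPZ also had 2 µM propiconazole, which blocks brassinosteroid synthesis. RNA was taken 12 hours after 10 µM GA3, an active gibberellin, or mock solution had been put on the plate and poured off. The groups were wild type on PPZ with GA3, bzr1-1D on PPZ with mock, wild type on PPZ with mock, wild type without PPZ with GA3, and wild type without PPZ with mock. bzr1-1D is a dominant point mutation that stabilizes the brassinosteroid-regulated transcription factor BZR1, and read counts per gene do not show it. Nothing in the labels ties the 2 libraries of a group to different cultures. The p-values therefore speak only to the variation between the libraries sequenced, part of which may be technical.

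Plants hold active gibberellin at a set level by making it with GA 20-oxidases and GA 3-oxidases and by inactivating it with GA 2-oxidases, which put a hydroxyl group on carbon 2 of the molecule. In Arabidopsis GA2OX1, GA2OX2, GA2OX3, GA2OX4 and GA2OX6 act on gibberellins of the smaller C19 class, which includes the active hormones, whereas GA2OX7 and GA2OX8 act on C20 precursors. Gibberellin that binds a GID1 receptor leads to the destruction of DELLA repressors, and genes of the pathway respond in a feedback in which synthesis genes go down and inactivation genes go up when the hormone is plentiful.

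The 250 bases before the annotated start of the 4 members that were called in any deposited comparison are shown, since these are the genes whose changes the results rest on. They come from the RefSeq annotation of assembly TAIR10.1, read 5′ to 3′ on the gene's strand. The deposited tables name no build, so these positions belong to RefSeq. Capitals mark the motifs CACGTG (G-box), CGTGTG and CGTGCG (elements bound by BZR1), CACATG (an E-box bound by PIF factors) and TAACAAA (a gibberellin response element), searched on both strands. The motifs share no bases in these matches.
GA2OX2 (chr1:10537207-10537456, plus strand): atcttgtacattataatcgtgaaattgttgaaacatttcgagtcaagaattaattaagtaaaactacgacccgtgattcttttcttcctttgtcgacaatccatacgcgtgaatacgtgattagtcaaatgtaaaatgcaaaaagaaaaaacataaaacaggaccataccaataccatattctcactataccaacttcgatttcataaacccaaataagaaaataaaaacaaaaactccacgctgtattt
GA2OX4 (chr1:17698348-17698597, plus strand): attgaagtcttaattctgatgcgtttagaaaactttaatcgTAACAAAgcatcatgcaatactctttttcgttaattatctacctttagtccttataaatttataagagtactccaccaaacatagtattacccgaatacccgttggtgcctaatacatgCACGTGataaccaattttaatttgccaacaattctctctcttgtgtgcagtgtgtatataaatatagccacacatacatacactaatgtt
GA2OX6 (chr1:486550-486799, plus strand): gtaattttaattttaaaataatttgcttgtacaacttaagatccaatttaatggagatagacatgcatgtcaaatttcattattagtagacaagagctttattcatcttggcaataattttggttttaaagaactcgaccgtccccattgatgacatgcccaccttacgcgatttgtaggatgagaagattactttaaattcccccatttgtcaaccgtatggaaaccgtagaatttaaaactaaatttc
GA2OX1 (chr1:29513101-29513350, minus strand): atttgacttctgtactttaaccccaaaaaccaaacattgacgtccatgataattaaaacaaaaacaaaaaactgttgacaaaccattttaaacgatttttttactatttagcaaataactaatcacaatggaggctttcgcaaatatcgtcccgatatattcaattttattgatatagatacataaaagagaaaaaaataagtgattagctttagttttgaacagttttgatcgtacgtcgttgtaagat
Only the GA2OX4 window of these 4 held a match, with a G-box that begins 90 bases before the start and a gibberellin response element that begins 209 bases before it. Among 27443 windows of the same length before protein-coding genes, 6.49% held the G-box, 5.37% CGTGTG, 1.57% CGTGCG, 11.1% CACATG and 16.1% TAACAAA. GA2OX3 and GA2OX8 each held 1 TAACAAA and GA2OX7 held 2 copies of CACATG. A window without a match says only that these letters are not in those 250 bases.

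Each member has 3 exons in its longest coding model and a coding length of 966 to 1026 bases, and no annotated gene overlaps any of them in TAIR10.1. GA2OX2 and GA2OX3 were the closest pair, with 74.2% identical positions over their aligned coding sequences, and the other pairs had 47.7 to 61.1%. GA2OX7 and GA2OX8, the C20 enzymes, had 56.5% with each other. The longest exact stretch that 2 members' transcripts share was 23 bases. Multiply aligned reads, which a close relative could share, are kept in a row of their own and came to between 8.61 and 10.7% of a group.

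Levels here are whole reads recovered per library from the deposited group means and divided by size factors over all 10 libraries, called normalized reads. The libraries held 7710013 to 15702567 recovered reads over all resolved genes. In bulk samples fewer cells that express a gene and less RNA per cell cannot be told apart. GA2OX6 was the most abundant member in each of the 5 groups and GA2OX2 the next. Per kb of transcript, the mean GA2OX6 level was 165 normalized reads with GA3 on PPZ, 77.8 in bzr1-1D, 52.6 with mock on PPZ, 257 with GA3 without PPZ and 70.8 with mock without PPZ. On the same scale GA2OX2 stood at 68.5 with GA3 on PPZ, 34.1 in bzr1-1D, 20.5 with mock on PPZ, 72.6 with GA3 without PPZ and 8.33 with mock without PPZ. GA2OX6 thus made up 63.9%, 60.3%, 62.7%, 68.5% and 82.1% of the summed length-scaled level of the 7 members in those 5 groups. GA2OX2 made up 26.5%, 26.4%, 24.4%, 19.4% and 9.65% in the same order.

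**Figure D1:**
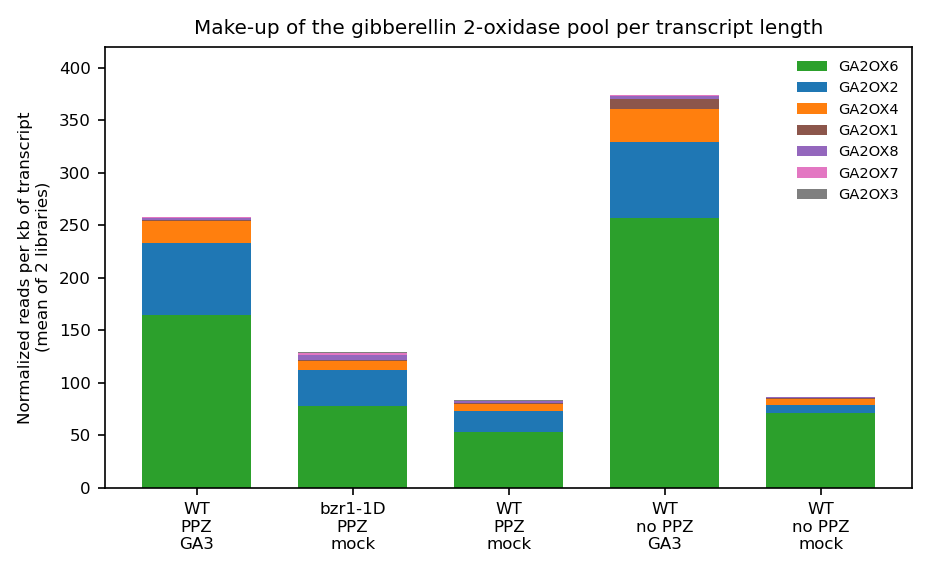
Stacked bars give the mean normalized reads per kb of transcript (2 libraries per group) of the 7 gibberellin 2-oxidases read in the 5 groups, all on PAC. GA2OX6 fills 60.3 to 82.1% of each bar, and the GA2OX2 part is smallest in wild type without PPZ with mock, at 9.65%.

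Without PPZ, GA3 raised 4 of the 6 measured gibberellin 2-oxidases, and none of them fell. At an adjusted p under 0.05 in the authors' deposited table, GA2OX1, GA2OX2, GA2OX4 and GA2OX6 were higher, as were 12.9% of the 24020 genes tested. Limma-voom called 31.3% of 18941 genes in either direction and all 3 members that it tested, GA2OX2, GA2OX4 and GA2OX6. Over the 7 members together, the level was 538 and 563 normalized reads in the 2 GA3 libraries, against 121 and 128 in the 2 mock libraries. The median log2 fold of the 5 members with a finite fold in the authors' deposited table was 2.64, against 0.04 over all genes. It is the value of GA2OX4 itself. It leaves out GA2OX3 and GA2OX7, which had 0 reads with mock, and includes GA2OX1 and GA2OX8, which had few reads. That median is a description of these members, which were read with earlier results of these data known.

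GA2OX6 had 351 and 375 normalized reads in the GA3 libraries, against 97.2 and 103 in the mock libraries. Both GA3 libraries lay far above both mock libraries, and the libraries of a group differed little. In limma-voom on the recovered reads its log2 change was 1.82 ± 0.15 (SE, 2 libraries per group), with an adjusted p of 5.69e-05. The fold in the authors' deposited table was 3.61 (adjusted p = 3.08e-22 by DESeq).

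GA2OX2 had 128 and 135 normalized reads with GA3, against 16.2 and 14.0 with mock. This was the largest log2 change of the 3 members tested by limma-voom, at 3.01 ± 0.28 (adjusted p = 8.77e-05), and 8.70-fold in the authors' deposited table (adjusted p = 2.97e-15 by DESeq). On 239 and 26 reads the exact 95% interval of the ratio was 5.64 to 13.2-fold, for counting error alone. Its closest relative by sequence, GA2OX3, had 0 reads in all 4 of these libraries and no test.

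GA2OX4 was expressed at lower levels, with 42.1 and 35.4 normalized reads with GA3, against 5.40 and 6.99 with mock. The 2 groups did not overlap, and the log2 change was 2.55 ± 0.39 (limma-voom adjusted p = 0.00104). It rested on 72 reads with GA3 and 10 with mock, which give an exact 95% interval of 3.41 to 14.4-fold for counting error.

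GA2OX1 was almost silent except in this group, with 15 and 9 reads in the GA3 libraries, against 1 and 1 in the mock libraries. In normalized reads that is 13.7 and 12.3 with GA3, against 0.90 and 1.75 with mock. The authors' deposited table called it higher (adjusted p = 0.0459 by DESeq), close to the threshold. It was below the minimum of 10 normalized reads used for limma-voom, and with no such minimum its log2 change was 2.90 ± 0.65 (limma-voom adjusted p = 0.00395). The ratio of reads was 11.1-fold, with an exact 95% interval of 2.75 to 96.6-fold, so its size is poorly known.

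The C20 enzymes stayed near the limit of detection. GA2OX8 had 3 and 3 reads with GA3, against 1 and 1 with mock, and GA2OX7 had 1 and 1 reads, against 0 and 0. Neither was called in the authors' deposited table (adjusted p = 0.708 for GA2OX8 and 0.883 for GA2OX7 by DESeq). A count of 0 allows up to 3 reads, which is 2.70 normalized reads in the deeper mock library and 5.24 in the shallower one, so a difference in GA2OX7 was not detectable at this depth.

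**Figure D2:**
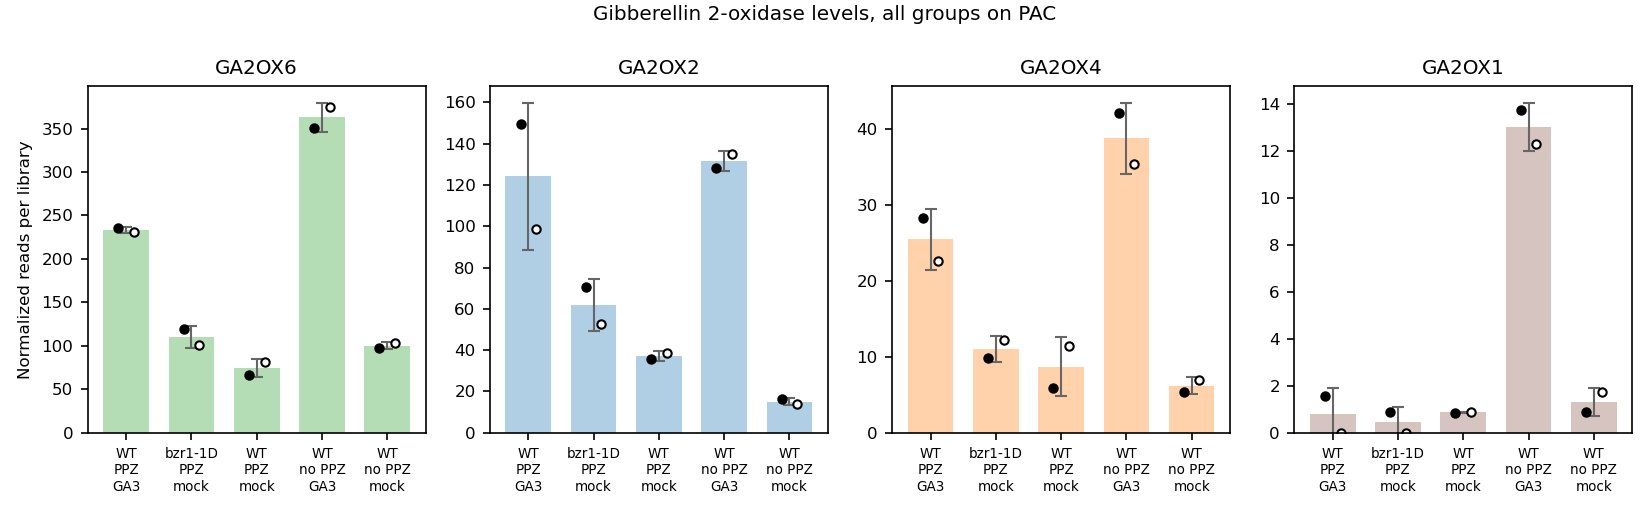
Normalized reads of GA2OX6, GA2OX2, GA2OX4 and GA2OX1 in the 5 groups, all on PAC. Bars are means of 2 libraries, error bars are SD, filled circles are the deeper and open circles the shallower library of a group, and each panel has its own linear axis from 0. GA2OX1 exceeded 2 normalized reads only in wild type without PPZ with GA3, at 13.7 and 12.3.

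With brassinosteroid synthesis blocked as well, GA3 raised GA2OX2, GA2OX4 and GA2OX6, and GA2OX1 was not called. These 3 of 7 tested members were called in the authors' deposited table, as were 5.97% of its 24513 genes in that direction. Limma-voom called 34.8% of 19803 genes in either direction and the same 3 members, the only ones that it tested. The summed level of the 7 members was 419 and 356 normalized reads with GA3 on PPZ, against 113 and 137 with mock on PPZ. The median log2 fold of the 6 members with a finite fold was 1.24 in the authors' deposited table, against 0.02 over all genes. It leaves out GA2OX3, with 0 reads with GA3 and 4 with mock, and includes GA2OX1, GA2OX7 and GA2OX8, which had few reads.

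GA2OX6 had 236 and 231 normalized reads with GA3 on PPZ, against 66.9 and 81.9 with mock on PPZ. The groups were well apart, with a log2 change of 1.65 ± 0.14 (limma-voom adjusted p = 1.07e-06). GA2OX2 had 149 and 98.8 normalized reads with GA3, against 35.6 and 38.8 with mock. Its GA3 libraries differed more than those of GA2OX6 or GA2OX4, and both lay above the mock libraries. The log2 change was 1.73 ± 0.24 (limma-voom adjusted p = 0.000102) and the fold was 3.35 in the authors' deposited table (adjusted p = 1.71e-07 by DESeq).

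GA2OX4 had 28.3 and 22.6 normalized reads with GA3 on PPZ, against 5.93 and 11.4 with mock on PPZ, a log2 change of 1.59 ± 0.38 (limma-voom adjusted p = 0.00571). The authors' deposited table called it too (adjusted p = 0.0108 by DESeq). The limma-voom call ended when the deeper mock library was left out, where the log2 change was 1.13 (adjusted p = 0.0774, over all alternatives 0.00119 to 0.0774). Each fit without a library leaves 1 library in its group, which is assumed to vary like the other libraries in the fit. GA2OX1 had 2 and 0 reads with GA3, against 1 and 1 with mock, and was not called (adjusted p = 1 by DESeq in the authors' deposited table).

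GA2OX3 was seen in wild type on PPZ with mock, with 1 and 3 reads, and in bzr1-1D, with 0 and 1 reads. It had 0 reads in the other 6 libraries. GA2OX7 had 2 and 0 reads with GA3 on PPZ, against 1 and 0 with mock, and GA2OX8 had 3 and 4 reads, against 2 and 2. None of these 3 was called in the authors' deposited table.

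Whether the GA3 effect itself differed between plants with and without PPZ was tested as an interaction in the 4 wild-type groups, where limma-voom called 3.34% of 19455 genes in either direction. None of the 3 members tested was called at an adjusted p under 0.05, and 1 of them, GA2OX2, had an unadjusted p under 0.05. For GA2OX2 the log2 difference between the effects, with PPZ minus without it, was -1.31 ± 0.43 (limma-voom unadjusted p = 0.0110, adjusted p = 0.133). The difference was -1.004 ± 0.56 for GA2OX4 (limma-voom adjusted p = 0.387) and -0.20 ± 0.19 for GA2OX6 (adjusted p = 0.646). GA2OX1 entered this test only with no minimum on reads, where the log2 difference was -3.24 ± 0.97 (limma-voom unadjusted p = 0.00553, adjusted p = 0.119).

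PPZ with mock went with a higher level of GA2OX2, and the other members did not pass. With mock, limma-voom called 30.6% of 19455 genes between PPZ and no PPZ, and among the 3 members tested it called GA2OX2 as higher. That is 1 of 3 members, a share near the one over all genes. GA2OX2 had 35.6 and 38.8 normalized reads with PPZ, against 16.2 and 14.0 without it, a log2 change of 1.24 ± 0.39 (limma-voom adjusted p = 0.0330). The libraries were apart, and the exact 95% interval for counting error was 1.53 to 3.89-fold. The call was lost without any single 1 of the 4 libraries compared, with log2 changes of 1.17 to 1.34 and adjusted p of 0.0664 to 0.115 in limma-voom. Such a fit has 1 library in a group, with its spread taken from the other groups.

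GA2OX6 lay the other way, with 66.9 and 81.9 normalized reads with PPZ and mock, against 97.2 and 103 without PPZ. The 2 groups did not overlap, but the log2 change of -0.42 ± 0.16 did not pass (limma-voom adjusted p = 0.0717). GA2OX4 had 5.93 and 11.4 normalized reads with PPZ, against 5.40 and 6.99 without it, and the groups overlapped (log2 change 0.40 ± 0.49, limma-voom adjusted p = 0.578).

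With GA3 present, PPZ lowered GA2OX6, while the GA2OX2 libraries of the 2 backgrounds overlapped. Limma-voom called 46.3% of 19455 genes between PPZ and no PPZ in these GA3-treated groups, and 1 of the 3 members tested, a share below the one over all genes. GA2OX6 had 236 and 231 normalized reads with PPZ and GA3, against 351 and 375 with GA3 alone, a log2 change of -0.62 ± 0.10 (limma-voom adjusted p = 0.000385). GA2OX2 had 149 and 98.8 normalized reads with PPZ and GA3, against 128 and 135 with GA3 alone, and the ranges overlapped (log2 change -0.07 ± 0.18, limma-voom adjusted p = 0.774).

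GA2OX4 had 28.3 and 22.6 normalized reads with PPZ and GA3, against 42.1 and 35.4 with GA3 alone. The libraries were apart, but the log2 change of -0.60 ± 0.27 did not pass (limma-voom adjusted p = 0.0914). GA2OX1 differed most in ratio, with 2 and 0 reads with PPZ and GA3, against 15 and 9 reads with GA3 alone. With no minimum on reads its log2 change was -3.70 ± 0.63 (limma-voom adjusted p = 0.000566), and its read ratio was 0.0679 with an exact 95% interval of 0.00777 to 0.273 for counting error. These comparisons share their libraries with the GA3 comparisons above, so they are not independent of them.

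**Figure D3:**
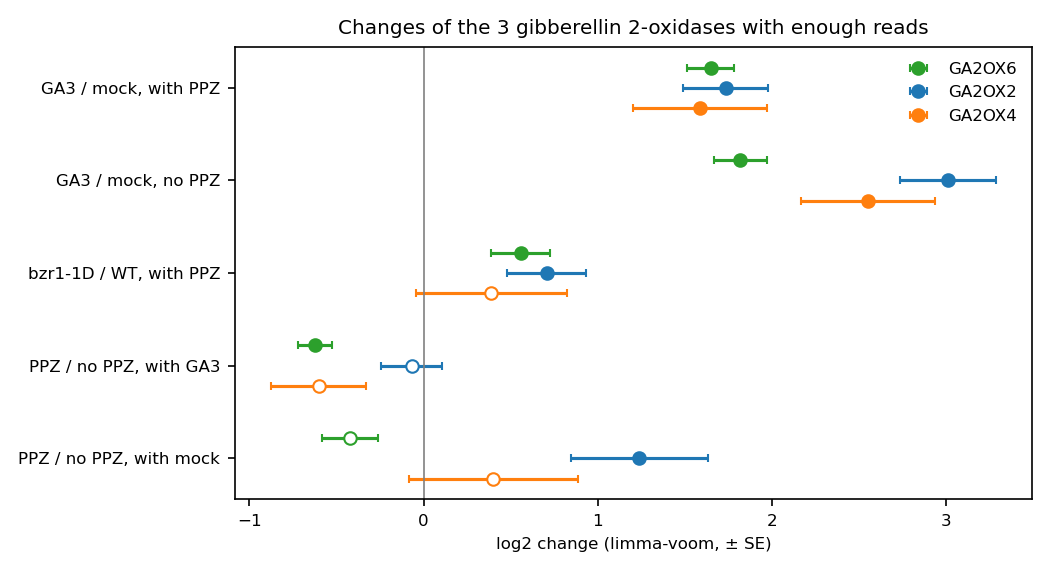
Log2 changes (limma-voom, horizontal axis, bars are SE) of GA2OX6, GA2OX2 and GA2OX4 in 5 comparisons of 2 libraries per group. Filled points have an adjusted p under 0.05. All 3 members lie at 1.59 to 3.01 for GA3, and GA2OX2 and GA2OX6 lie on opposite sides of 0 for PPZ with mock.

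In bzr1-1D on PPZ, GA2OX6 was 1.48-fold higher than in wild type on PPZ, and it was the 1 member of 7 called in the authors' deposited table. There 14.5% of the 24621 genes tested were higher, a share near 1 of 7. Limma-voom called 46.6% of 19850 genes in either direction, and GA2OX6 and GA2OX2 of the 3 members it tested. The C20 gene GA2OX8 had its highest mean level of the 5 groups. The median log2 fold of the 7 members was 0.56 in the authors' deposited table, against 0.02 over all genes. That median is the value of GA2OX6 itself, and GA2OX1, GA2OX3, GA2OX7 and GA2OX8 had few reads. This comparison shares its wild-type libraries with the GA3 comparison on PPZ.

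GA2OX6 had 119 and 101 normalized reads in bzr1-1D, against 66.9 and 81.9 in wild type on PPZ (adjusted p = 0.0163 by DESeq in the authors' deposited table). The groups did not overlap, and the log2 change was 0.56 ± 0.17 (limma-voom adjusted p = 0.0173). GA2OX2 had 70.7 and 52.8 normalized reads in bzr1-1D, against 35.6 and 38.8 in wild type, and again the groups were apart. It missed the threshold in the authors' deposited table (adjusted p = 0.0648 by DESeq) and passed in limma-voom, with a log2 change of 0.71 ± 0.23 (adjusted p = 0.0224). Neither limma-voom call held without the deeper bzr1-1D library, where the log2 changes were 0.44 for GA2OX6 and 0.49 for GA2OX2 (limma-voom adjusted p = 0.0524 and 0.120, over all alternatives up to 0.191 for GA2OX6 and 0.120 for GA2OX2). They were also lost without the deeper wild-type library on PPZ, at 0.40 for GA2OX6 and 0.64 for GA2OX2 (limma-voom adjusted p = 0.191 and 0.109), and that of GA2OX2 without the shallower one, at 0.76 (limma-voom adjusted p = 0.0515).

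GA2OX8 had 7 and 8 reads in bzr1-1D, against 2 and 2 in wild type on PPZ. The authors' deposited table did not call it (adjusted p = 0.232 by DESeq). Limma-voom with no minimum on reads gave a log2 change of 1.75 ± 0.55 (adjusted p = 0.0329), and the exact 95% interval of the read ratio was 1.27 to 16.5-fold. GA2OX7, the other C20 enzyme, had 2 and 3 reads in bzr1-1D, against 1 and 0 in wild type, and was not called (adjusted p = 0.698 by DESeq in the authors' deposited table). GA2OX4 had 9.85 and 12.3 normalized reads in bzr1-1D, against 5.93 and 11.4 in wild type, and the groups overlapped.

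Set in order of their means, the 5 groups ranked alike for GA2OX2 and GA2OX4, and for GA2OX6 the last 2 groups were exchanged. For GA2OX2 the order was GA3 without PPZ (132 ± 4.82 normalized reads, SD, n = 2), GA3 on PPZ (124 ± 35.8), bzr1-1D (61.8 ± 12.7), mock on PPZ (37.2 ± 2.26) and mock without PPZ (15.1 ± 1.57). The libraries of the 2 GA3 groups overlapped, and the other neighbours were apart. For GA2OX6 the order was GA3 without PPZ (363 ± 17.2), GA3 on PPZ (233 ± 3.82), bzr1-1D (110 ± 12.9), mock without PPZ (100.1 ± 4.15) and mock on PPZ (74.4 ± 10.6), and of these neighbours bzr1-1D and mock without PPZ overlapped. So GA2OX2 was lowest without PPZ and GA2OX6 lowest with it, among mock-treated wild type. For GA2OX4 the 2 GA3 groups were apart from each other and from the rest, at 38.8 ± 4.71 without PPZ and 25.5 ± 4.01 with it, and neighbours among the other 3 groups, at 6.19 ± 1.12 to 11.1 ± 1.70, overlapped.

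For GA2OX6, other genes had closely similar patterns over the 10 libraries. Likeness was the root-mean-square difference of log2(normalized reads + 1), each gene centred on its own mean, over the 19547 genes that averaged 10 or more normalized reads. The nearest gene to GA2OX6 was RGL3 (AT5G17490), which encodes a DELLA repressor, at a difference of 0.10. RGL3 had 101 and 116 normalized reads with GA3 on PPZ, 52.8 and 49.0 in bzr1-1D, 31.3 and 43.2 with mock on PPZ, 174 and 176 with GA3 without PPZ, and 51.3 and 54.1 with mock without PPZ. The next was ARF11 (AT2G46530), an auxin response factor, at 0.18.

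The nearest genes to GA2OX2 were AT5G20790 at 0.42 and ETC1 (AT1G01380), a small MYB protein that acts in trichome and root hair patterning, at 0.44. Without PPZ, AT5G20790 had a mean of 67.5 normalized reads with GA3 and 16.0 with mock, against 132 and 15.1 for GA2OX2. The genes nearest to GA2OX4 were AT4G20320, which encodes a CTP synthase, at 0.30 and GA2OX6 itself at 0.35. Low-count members carry more counting noise, so these distances are not comparable between members.

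**Figure D4:**
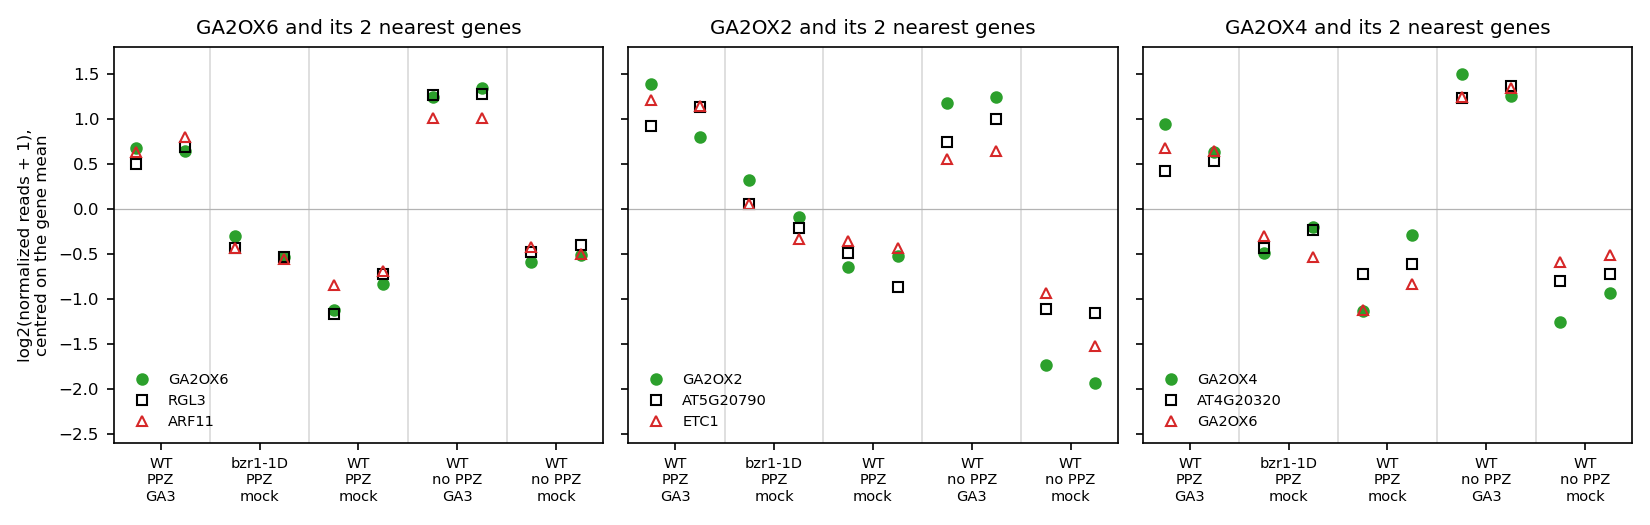
Centred log2(normalized reads + 1) of GA2OX6, GA2OX2 and GA2OX4, each with its 2 nearest genes, in the 10 libraries. In each group the deeper library is on the left. RGL3 follows GA2OX6 with a root-mean-square difference of 0.10, and the genes nearest to GA2OX2 differ from it by 0.42 and 0.44.

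Elsewhere in the pathway, most synthesis genes called with GA3 were lower. Of 12 measured synthesis genes, 6 were lower and 1 higher with GA3 on PPZ and 5 were lower and 1 higher without PPZ in the authors' deposited tables, where 7.37% and 14.3% of all tested genes were called lower in those comparisons. GA20OX3 (AT5G07200), a GA 20-oxidase, had 5.93 normalized reads with GA3 on PPZ, against 187 with mock, and 12.4 with GA3 without PPZ, against 276 with mock, in the authors' deposited tables. GA20OX2 (AT5G51810) had 135 normalized reads with GA3 on PPZ, against 1502 with mock, and 537 with GA3 without PPZ, against 3681 with mock, in the authors' deposited tables.

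In bzr1-1D no synthesis gene was called lower in the authors' deposited table, against 15% of all genes. Of the 12 measured, 2 were called higher, a share near the 14.5% of all genes called higher there. They were GA20OX1 (AT4G25420), with 83.7 normalized reads in bzr1-1D, against 41.6 in wild type, and GA3OX1 (AT1G15550), the last step of synthesis, with 1408 in bzr1-1D, against 894 in wild type (adjusted p = 0.0174 and 4.43e-08 by DESeq).

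The list of 11 receptor, F-box and DELLA genes, with SCL3, held 4 called higher and 4 called lower in each GA3 comparison of the authors' deposited tables. Over all genes, 5.97% were higher and 7.37% lower with GA3 on PPZ, and 12.9% were higher and 14.3% lower with GA3 without PPZ. In bzr1-1D the list held 3 called higher and none lower, against 14.5% and 15% of all genes. The GRAS-family gene SCL3 (AT1G50420), which promotes gibberellin responses, and RGL3 had the largest changes with GA3. RGL3 was 2.94-fold higher on PPZ and 3.31-fold higher without PPZ in the authors' deposited tables, and SCL3 was called lower in both. In bzr1-1D the largest were the DELLA genes RGL1 (AT1G66350), 2.20-fold higher, and GAI (AT1G14920), 1.41-fold higher, in the authors' deposited table.

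The family shares the work of inactivation with other enzymes. Of 4 such genes 3 were measured, the cytochrome P450 genes CYP714A1 and CYP714A2 and the methyltransferase genes GAMT1 and GAMT2 making up the list. CYP714A1 (AT5G24910) was called higher in bzr1-1D, with 146 normalized reads against 77.9 in wild type, and with GA3 without PPZ, with 195 against 123 with mock (DESeq adjusted p = 0.00629 and 0.0264, authors' deposited tables). No other gene of that list was called in the 3 comparisons. Of all genes, 14.5% were called higher in bzr1-1D and 12.9% with GA3 without PPZ.

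Marker lists of several tissues were read, but none was of the hypocotyl, so they could not test that label. All 3 shoot epidermis markers were expressed in every group, but markers of other tissues were too, so the libraries also held RNA of genes typical of root, cotyledon and seed. The 10 root markers summed to 614 to 658 normalized reads with GA3 on PPZ, 373 to 456 in bzr1-1D, 578 to 646 with mock on PPZ, 481 to 499 with GA3 without PPZ and 281 to 283 with mock without PPZ, and 1 of them was at 0 in both groups without PPZ. Of these root markers 2 were called higher with GA3 without PPZ, 0 in either direction with GA3 on PPZ, and 5 lower in bzr1-1D, where 15% of all genes were called lower in the authors' deposited table. The 8 seed reserve markers with resolved reads summed to 3572 to 6199 normalized reads with GA3 on PPZ, 8673 to 11655 in bzr1-1D, 19438 to 21607 with mock on PPZ, 1921 to 2208 with GA3 without PPZ and 8905 to 12168 with mock without PPZ. The 2 photosynthetic markers with resolved reads summed to 5761 to 6037, 4808 to 5870, 8902 to 8950, 4600 to 4922 and 7967 to 10965 in the same order. In the authors' deposited tables, 8 of 9 seed reserve markers were lower in each GA3 comparison and 4 in bzr1-1D. Of the 4 photosynthetic markers, 3 were lower with GA3 on PPZ and all 4 in bzr1-1D and with GA3 without PPZ. The 3 shoot epidermis markers were higher in both GA3 comparisons, and 1 of them in bzr1-1D. Of all genes, 7.37% were lower and 5.97% higher with GA3 on PPZ, 14.3% lower and 12.9% higher with GA3 without PPZ, and 14.5% higher in bzr1-1D. The part of these tissue markers in the changes of the gibberellin 2-oxidases was not tested.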

How the data were processed

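RNA-seq was read in 10 libraries of 5 groups, mapped from the sample titles. Per the submitters' processing notes, the authors used TopHat and DESeq. Not given in the sources used here are versions, build, annotation and counter. The authors' signal columns, which the file headers name only by group, were read as group means of reads scaled by library size factors. The fold the authors deposited is a ratio with the control as denominator, and the p-value columns deposited beside it come from the authors' DESeq test. Rows without a gene name, 5 in each file, stayed out of all sums and tests. Reads outside genes made up 1.47 to 1.58% and ambiguous reads 1.34 to 1.47% of a group.

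Because a group mean adds whole reads of 2 libraries in fixed steps, the reads of both could be recovered for 99.6 to 99.9% of genes above 0, a step tested on simulated data. The 2 libraries are named by depth, as they cannot be matched to the first sample and its repeat. The libraries of each group differed by more than counting noise (chi-square over degrees of freedom 2.23 to 9.65). The value was 9.65 in wild type without PPZ with mock and 2.23 to 4.85 in the other groups. That mock group is the control for GA3 without PPZ and for PPZ with mock.

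The main calls were the DESeq calls of the authors at an adjusted p under 0.05. Log2 changes with SE came from limma-voom (limma 3.58.1, R 4.3.3) with median-ratio scaling on genes averaging 10 or more normalized reads. It was fitted on the libraries compared, or on the 4 wild-type groups for PPZ and the interaction, with Benjamini-Hochberg adjustment over all genes tested. On simulated data it found 66 to 90 of 100 genes changed 2-fold and 93 to 98 of 100 changed 4-fold, depending on the comparison. False calls there came to between 4 and 18 genes per comparison, with 18 for GA3 without PPZ. Intervals are exact binomial 95% intervals, and they and the limit of 3 reads behind a count of 0 cover counting error only. Symbols and gene models came from RefSeq TAIR10.1 (32709 of 33518 identifiers matched).

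The genes named are the 7 members, the 2 nearest patterns of each member averaging 10 or more normalized reads, and the 2 largest called changes of each of 3 pathway lists. The members and lists were chosen with earlier results of these data known. Alternatives were a stricter threshold, a 2-fold minimum, TMM scaling, no minimum on reads, all 10 libraries in 1 fit and leaving out each library.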

Additional observations from a re-analysis of the deposited data

How the results depend on the processing

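The limma-voom count of members for GA3 without PPZ was 3 under TMM scaling, in the fit of all 10 libraries and when any 1 library was left out, and 4 with no minimum on reads, where GA2OX1 entered the test. With GA3 on PPZ it ranged from 2 to 3 when 1 library was left out, and it was 3 under the other alternatives. At an adjusted p under 0.01 the authors' 4 calls for GA3 without PPZ became 3, and their 3 calls for GA3 on PPZ became 2. With a 2-fold minimum these counts stayed at 4 and 3. In bzr1-1D the authors' 1 call became 0 at an adjusted p under 0.01, 0 with a 2-fold minimum and 2 in limma-voom. The last was an alternative chosen after the data were seen. The 2 limma-voom calls in bzr1-1D ranged from 0 to 2 and the 1 call for PPZ with mock from 0 to 1 when 1 library was left out. With no minimum on reads the bzr1-1D count was 3, with GA2OX8, where 9125 of 24517 genes were called. For PPZ with GA3 the count was 2 with no minimum on reads, against 1, since GA2OX1 then entered the test. There 9052 of 25003 genes were called, and 6096 of 23996 for GA3 without PPZ with no minimum on reads. Log2 changes that were not called turned sign when 1 library was left out, and ranged from -0.074 to 0.83 for GA2OX4 in bzr1-1D, from -0.055 to 0.84 for GA2OX4 for PPZ with mock, and from -0.39 to 0.20 for GA2OX2 for PPZ with GA3. The cause was not tested. A group left with 1 library is assumed to vary like the others. Over all genes, leaving out 1 library gave 2688 to 8538 limma-voom calls for GA3 without PPZ against 5929, 3496 to 6578 for PPZ with mock against 5960, 5592 to 10457 for PPZ with GA3 against 9015, and 55 to 2687 for the interaction against 649. For GA3 on PPZ the fit of all 10 libraries gave 4517 against 6894. TMM scaling moved the members' levels by at most 1.505% and the deposited means differed from those levels by at most 0.999%. The tests with edgeR and DESeq2 planned as alternatives were not run, and how they would call the members is not known. No paired analysis was possible because the deposited columns carry no replicate number. Few reads limit GA2OX1, GA2OX3, GA2OX7 and GA2OX8, which had at most 15 reads in a library.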
